A study of Homo sapiens with 6 samples.

Results

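The YAP/TAZ-TEAD pathway was examined through 10 genes in HCT116, an established human colorectal carcinoma line. The genes were listed by name for their known roles, with earlier results of these data known: the coactivators YAP1 and WWTR1 (the gene of TAZ), the DNA-binding factors TEAD1 and TEAD4, the target genes CCN1, CCN2 and ANKRD1, the feedback inhibitors AMOTL2 and LATS2, and the LIM-domain adaptor AJUBA. Each of the 10 symbols matched 1 of the 60612 genes listed in every library. Poly(A)-selected RNA had been sequenced from 3 libraries of cells infected with the negative control lentivirus (LV-NC) and from 3 libraries of cells infected with a lentivirus that carries SNORA28 (LV-SNORA28), an H/ACA box small nucleolar RNA. The virus that carries SNORA28 was a GV235 lentiviral vector, and the vector of the control virus is not stated separately. The methods of the study give puromycin selection for cells that stably overexpress SNORA28, do not say whether control cells were selected in the same way, and name no single-cell cloning. For the sequenced cells they give infection with either virus and its duration before collection, and name no selection. The study asks how additional SNORA28 alters gene expression. The sources do not say whether the 3 libraries of a group came from separate cultures, so the p-values measure only the spread between these libraries.

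YAP and TAZ carry no DNA-binding domain of their own and reach DNA through the TEAD factors. When the Hippo kinase cascade is active, the MST kinases act on LATS1 and LATS2, and these phosphorylate YAP and TAZ, which are then held in the cytoplasm or degraded. When the cascade is inactive, YAP and TAZ enter the nucleus and switch on genes for matrix-associated growth signals such as CCN1 and CCN2, together with inhibitors of themselves such as AMOTL2 and LATS2. In the intestinal epithelium YAP is known for its part in regeneration after injury and in tumour growth. Because this control acts mostly on the proteins, mRNA levels of YAP1, WWTR1 and the TEAD genes do not measure pathway activity.

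The libraries were checked before the pathway was read. SNORA28 (ENSG00000272533) was listed at 0 to 0.92 FPKM in LV-NC and at 13.66 to 15.2 FPKM in LV-SNORA28 (limma adjusted p 0.00228), in the direction of the labels. Its transcript has 126 nt and the RNA was poly(A)-selected. Whether these fragments came from the mature small RNA or from longer transcripts was not tested. FPKM is a fragment count scaled by the length of the transcript and by the mapped fragments of the library. Of 10 colorectal epithelial markers, 7 had a mean of at least 1 FPKM, with a summed level of 790 to 879 FPKM in LV-NC and 811 to 860 FPKM in LV-SNORA28, while CDX1 was listed at 0 throughout and VIL1 and KRT20 stayed below 0.4 FPKM. Fibroblast markers summed to 3.25 to 4.53 FPKM in LV-NC and 3.27 to 4.18 FPKM in LV-SNORA28, nearly all of it COL1A1, with COL1A2, DCN and LUM at 0 throughout. Haematopoietic markers summed to 1.08 to 2.21 FPKM and 2.49 to 4.16 FPKM, nearly all of it CD68, with PTPRC and CD3E at 0 in every LV-SNORA28 library and at most 0.08 FPKM in LV-NC. Endothelial markers stayed below 0.2 FPKM in sum. Mitochondrially encoded genes made up 42.7% to 47.7% of all FPKM in the LV-NC libraries and 35.9% to 38.3% in LV-SNORA28. The cause of this difference was not tested, and its part in the results below was read only through the scaling. With each library scaled to the sum of its other genes, the log2 fold change was 0.26 for YAP1, -0.30 for CCN1, -0.40 for CCN2 and -0.47 for AMOTL2, and none of the 9 genes tested passed in limma.

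TEAD factors recognise the letters GGAATG (the reverse complement is CATTCC), and promoter sequences are shown because these letters recur in the promoters of most of the 10 genes that could be read. RefSeq windows (GRCh38.p14) of 300 bases, from 250 bases before to 50 bases after a transcript start, were found for 7 of the 10 genes, in 10 windows. TEAD1, TEAD4 and CCN1 had no entry. Of the 7 genes, 6 held GGAATG on either strand in at least 1 window, with 9 matches in all, against 14.0% of all 35116 windows and 16.7% of 27305 genes. WWTR1, with 2 windows, held none. The AP-1-type letters TGANTCA, with any base at N, were also searched on both strands. They were found in 7.71% of all windows and, among the 7 genes, in ANKRD1 only. That match begins 195 bases before the start, does not overlap a TEAD match and reads TGATTCA, with T at N. Matches with C or G at N were not counted apart, so the share is for the wider letters. A match describes the letters and does not show that a factor is bound.

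The upstream windows of CCN2 and ANKRD1, the genes with more than 1 match, are given 5′ to 3′ on the gene strand, with GGAATG in capitals. CCN2 held 3 matches, which begin 169, 104 and 95 bases before the start, and 0.128% of all windows held 3 or more. ANKRD1 held 2, which begin 220 and 128 bases before the start, and 1.37% of all windows held 2 or more.
CCN2 (chr6:131951373-131951622, minus strand): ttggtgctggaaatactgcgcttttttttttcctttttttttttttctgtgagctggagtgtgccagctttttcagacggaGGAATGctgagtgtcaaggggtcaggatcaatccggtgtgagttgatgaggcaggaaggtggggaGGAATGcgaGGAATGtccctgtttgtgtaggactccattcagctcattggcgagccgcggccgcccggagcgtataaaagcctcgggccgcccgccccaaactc
ANKRD1 (chr10:90921088-90921337, minus strand): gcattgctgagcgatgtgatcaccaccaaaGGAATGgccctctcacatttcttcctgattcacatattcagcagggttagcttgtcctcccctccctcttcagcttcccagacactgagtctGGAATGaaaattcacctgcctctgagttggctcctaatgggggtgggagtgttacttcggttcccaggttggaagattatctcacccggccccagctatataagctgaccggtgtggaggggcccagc

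The other 4 genes with a match held 1 each, and 30 bases around it are shown so that the flanks can be compared with those of CCN2, with the TEAD letters in capitals. The match of LATS2 begins at base 10 of the transcript, with the start counted as base 1. Those of YAP1, AMOTL2 and AJUBA lie 162, 69 and 59 bases before a start, and AMOTL2 and AJUBA have a further window each that held none.
YAP1 (chr11:102110273-102110302, plus strand): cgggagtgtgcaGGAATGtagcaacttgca
AMOTL2 (chr3:134374499-134374528, minus strand): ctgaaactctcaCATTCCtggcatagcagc
LATS2 (chr13:21061560-21061589, minus strand): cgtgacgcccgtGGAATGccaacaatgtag
AJUBA (chr14:22976884-22976913, minus strand): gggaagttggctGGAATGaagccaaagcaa

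**Figure D1:**
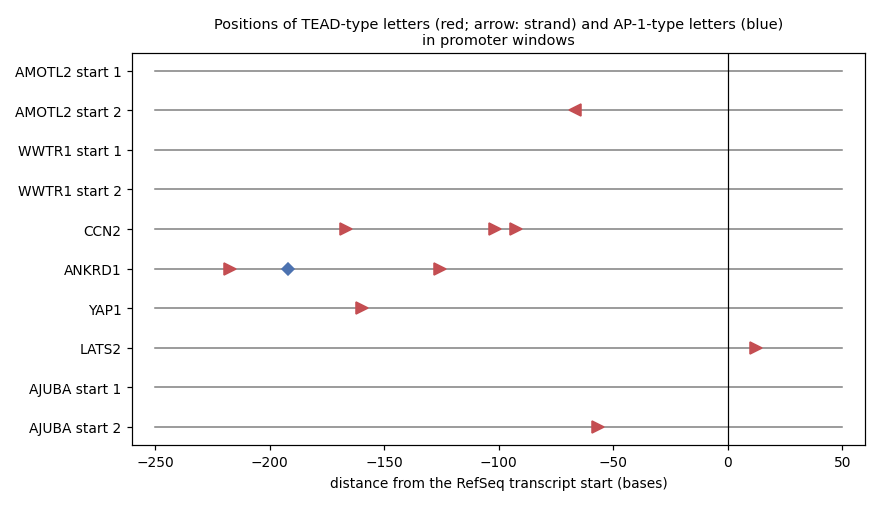
Positions of the TEAD letters GGAATG (red) and of the AP-1-type letters TGANTCA (blue, any base at N) in the 10 promoter windows of 7 genes. Red arrows point right on the gene strand and left on the opposite strand. The horizontal axis gives the distance from the transcript start in bases. CCN2 holds 3 TEAD matches, and ANKRD1 holds 2 beside 1 match to TGANTCA, which reads TGATTCA.

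None of the 10 genes passed the test between LV-SNORA28 and LV-NC. In these bulk libraries a change in the number of cells that express a gene and a change in its RNA per cell cannot be told apart. The limma fit on log2(FPKM + 1) covered 12076 genes whose mean reached 1 FPKM, 9 of the 10 genes among them. It called 0 of the 9 at an adjusted p below 0.05, against 8.91% of all genes tested (6.81% called higher and 2.10% called lower). With p below 0.05 before adjustment there was 1 gene, CCN2, against 28.0% of all, or 6.08% in its direction. At the cutoff used by the study, which asks for a fold change above 1.5 and the same p before adjustment, it was 0 of 9 against 3.79% of all. Fold and p were those of limma on log2(FPKM + 1) values, so this is not the study's own count. No other tool was run. The log2 fold change was below 0 for 6 of the 9 genes, against 33.3% of all genes tested, and its median was -0.13, against 0.09 over all. The groups did not overlap for CCN2 and LATS2, both lower in LV-SNORA28, which is 2 of 9 genes. Of all genes tested, 35.1% did not overlap, and 8.16% were lower without overlap. Fold changes on this scale understate the change of low genes, and with 3 against 3 libraries an exact permutation test of a single gene cannot go below p = 0.10.

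**Figure D2:**
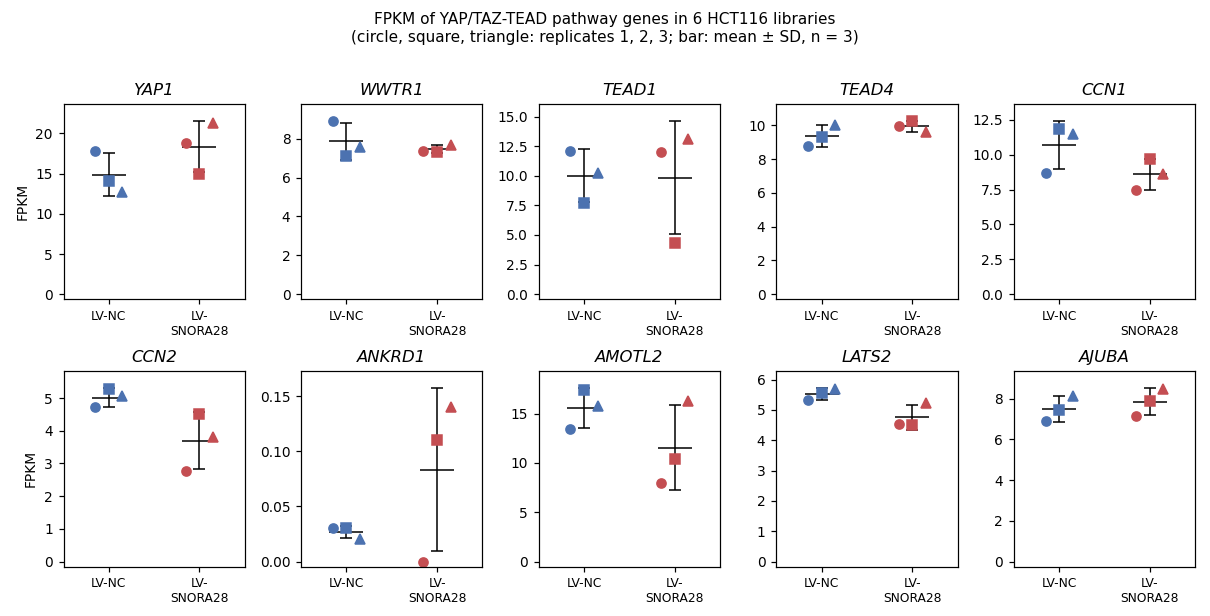
FPKM of each of the 10 genes (vertical axes, linear) in the 3 LV-NC and the 3 LV-SNORA28 libraries, with 1 symbol per library and the mean ± SD as bars. CCN2 and LATS2 are the genes whose LV-SNORA28 values all lie below the LV-NC values, and ANKRD1 stays at or below 0.14 FPKM.

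The levels in control cells, which can be compared between genes because FPKM is per length, placed AMOTL2 first with 15.6 ± 2.01 FPKM (SD, n = 3) and YAP1 next with 14.9 ± 2.62 FPKM, and the ranges of this pair overlapped. CCN1, TEAD1 and TEAD4 followed between 9.37 and 10.7 FPKM, with overlapping ranges. WWTR1 and AJUBA had 7.86 and 7.49 FPKM, each overlapping the gene before it, and LATS2, CCN2 and ANKRD1 stood below them with ranges apart from one another. Apart from ANKRD1, the 10 genes lay between the 43.5th and the 82.5th percentile of the genes tested by mean level. In LV-SNORA28 the order was led by YAP1 with 18.3 FPKM and then AMOTL2 with 11.6 FPKM. Neighbours overlapped down to WWTR1 (7.47 FPKM), whose range lay above that of LATS2 (4.75 FPKM), and LATS2 overlapped CCN2 (3.70 FPKM). The wide range of TEAD1 in these libraries also reached that of LATS2.

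YAP1 (ENSG00000137693; GRCh38 chromosome 11, 102110447 to 102233424, plus strand) measured 17.82, 14.07 and 12.77 FPKM across the LV-NC libraries, compared with 18.79, 14.97 and 21.29 FPKM across the LV-SNORA28 libraries. Replicate 2 of LV-SNORA28 lay within the LV-NC range, and the other 2 lay above it. Its log2 fold change of 0.28 (SE 0.16, 95% interval -0.10 to 0.67) did not pass (limma adjusted p 0.300). It ranged from 0.17 without LV-SNORA28 replicate 3 to 0.42 without LV-SNORA28 replicate 2. A noncoding gene on the opposite strand within YAP1 (ENSG00000277459) was listed at 0.590 to 1.33 FPKM, and whether the counting used the strand of the reads is not given in the sources used here.

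WWTR1 (ENSG00000018408; GRCh38 chromosome 3, 149517235 to 149736714, minus strand), the gene of the YAP paralog TAZ, measured 8.91, 7.11 and 7.57 FPKM across the LV-NC libraries, compared with 7.37, 7.33 and 7.7 FPKM across the LV-SNORA28 libraries. All 3 LV-SNORA28 values lay inside the LV-NC range. Its log2 fold change of -0.06 (SE 0.09, 95% interval -0.27 to 0.15, limma adjusted p 0.698) became 0.02 without LV-NC replicate 1. The ratio of WWTR1 to YAP1 within a library, which does not depend on how the library was scaled, averaged 0.533 ± 0.0521 (SD) over the 3 control libraries and 0.415 ± 0.0668 (SD) over the 3 LV-SNORA28 libraries. The values of 0.50, 0.505 and 0.593 in LV-NC did not overlap with those of 0.392, 0.490 and 0.362 in LV-SNORA28. By exact two-sided permutation p was 0.10, the lowest that 6 libraries permit, and 0.400 after Benjamini-Hochberg adjustment over the 4 ratios computed. YAP1 and WWTR1 together had 22.8 ± 3.47 FPKM in LV-NC and 25.8 ± 3.36 FPKM in LV-SNORA28, with overlapping groups (exact permutation p 0.300).

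The TEAD genes encode the factors that bind DNA for YAP and TAZ. TEAD1 (ENSG00000187079; GRCh38 chromosome 11, 12674421 to 12944737, plus strand) measured 12.12, 7.69 and 10.23 FPKM across the LV-NC libraries, compared with 12.03, 4.36 and 13.13 FPKM across the LV-SNORA28 libraries. Replicate 2 was the lowest library in both groups, and the spread within groups was wider than that of 97.5% of the genes tested. The difference on the log2 scale was -0.13 (SE 0.38, 95% interval -1.03 to 0.78, limma adjusted p 0.862). It was 0.32 without LV-SNORA28 replicate 2 (adjusted p 0.352) and 0.01 without LV-NC replicate 1, so its direction depended on single libraries. TEAD1 has a long transcript (9417 nt), and the 2218 genes tested with a transcript of at least 6000 nt had a median log2 deviation of -0.17 in LV-NC replicate 2 and 0.00 in LV-SNORA28 replicate 2, whose part in the TEAD1 values was not tested.

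TEAD4 (ENSG00000197905; GRCh38 chromosome 12, 2959330 to 3040676, plus strand) was steadier, with 8.76, 9.33 and 10.02 FPKM in LV-NC and 9.96, 10.23 and 9.61 FPKM in LV-SNORA28. The groups overlapped, and the log2 fold change was 0.08 (SE 0.07, 95% interval -0.09 to 0.24, limma adjusted p 0.514). It was -0.01 under quantile normalization, a scaling that sets the median change of all genes near 0. The ratio of TEAD4 to TEAD1 averaged 0.972 ± 0.245 in the LV-NC group and 1.30 ± 0.906 in the LV-SNORA28 group (SD, n = 3 each), with 2.35 in LV-SNORA28 replicate 2 alone, and did not differ beyond the spread (exact permutation p 0.800). The 4 TEAD genes together had 35.2 ± 3.69 FPKM in LV-NC and 34.0 ± 4.40 FPKM in LV-SNORA28 (exact permutation p 0.700). This sum and that of YAP1 and WWTR1 were added after the values were seen.

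CCN1 and CCN2 encode secreted matrix-associated proteins, also known as CYR61 and CTGF, and are the targets by which YAP/TAZ activity is most often read. CCN1 (ENSG00000142871; GRCh38 chromosome 1, 85580761 to 85584589, plus strand) measured 8.69, 11.83 and 11.51 FPKM across the LV-NC libraries, compared with 7.48, 9.69 and 8.64 FPKM across the LV-SNORA28 libraries. The groups overlapped through LV-NC replicate 1, which lay near the middle of the LV-SNORA28 values. On the log2 scale the difference was -0.28 (SE 0.14, 95% interval -0.61 to 0.05, limma adjusted p 0.246) and ranged from -0.41 without LV-NC replicate 1 to -0.19 without LV-SNORA28 replicate 1.

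CCN2 (ENSG00000118523; GRCh38 chromosome 6, 131948176 to 131951372, minus strand), whose promoter window holds the 3 TEAD matches shown above, measured 4.72, 5.28 and 5.05 FPKM across the LV-NC libraries, compared with 2.78, 4.5 and 3.81 FPKM across the LV-SNORA28 libraries. Every LV-SNORA28 value lay below every LV-NC value. Its log2 fold change of -0.37 (SE 0.14, 95% interval -0.71 to -0.04) reached p 0.0348 in limma before adjustment and 0.144 after it, and so did not pass. It ranged from -0.50 without LV-SNORA28 replicate 2 to -0.23 without LV-SNORA28 replicate 1, and adjusted p-values of those fits ran from 0.113 to 0.278. The ratio of CCN2 to CCN1 averaged 0.476 ± 0.0582 in the LV-NC group and 0.426 ± 0.0482 in the LV-SNORA28 group (SD, n = 3 each), with overlapping groups (exact permutation p 0.50).

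ANKRD1 (ENSG00000148677; GRCh38 chromosome 10, 90912096 to 90921087, minus strand), a nuclear ankyrin-repeat protein and a strong YAP target in other cells, was near 0 here. It measured 0.03, 0.03 and 0.02 FPKM across the LV-NC libraries, compared with 0, 0.11 and 0.14 FPKM across the LV-SNORA28 libraries. It did not reach the filter of 1 FPKM, and in the fit of all genes above 0 its log2 fold change was 0.08 (SE 0.05, 95% interval -0.05 to 0.20, limma adjusted p 0.591). Depth is unknown, so no detection limit can be given for these values. Its promoter window nonetheless holds 2 TEAD matches.

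AMOTL2 and LATS2 are targets of YAP/TAZ that act back on them. AMOTL2 (ENSG00000114019; GRCh38 chromosome 3, 134355347 to 134375479, minus strand), an angiomotin that binds YAP, measured 13.44, 17.43 and 15.82 FPKM across the LV-NC libraries, compared with 8, 10.36 and 16.32 FPKM across the LV-SNORA28 libraries. Replicates 1 and 2 of LV-SNORA28 lay below all LV-NC values, while replicate 3 lay within them, and the within-group spread exceeded that of 92.5% of the genes tested. The log2 fold change of -0.45 (SE 0.24, 95% interval -1.01 to 0.12, limma adjusted p 0.273) was the largest in size among the 9 genes tested. It was -0.70 without LV-SNORA28 replicate 3 (adjusted p 0.0797) and -0.23 without LV-SNORA28 replicate 1.

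LATS2 (ENSG00000150457; GRCh38 chromosome 13, 20973036 to 21061586, minus strand), the kinase that phosphorylates YAP and TAZ, measured 5.32, 5.56 and 5.69 FPKM across the LV-NC libraries, compared with 4.53, 4.49 and 5.24 FPKM across the LV-SNORA28 libraries. LV-NC and LV-SNORA28 values were separate, though LV-SNORA28 replicate 3 came close to the lowest control. The difference of -0.18 on the log2 scale (SE 0.08, 95% interval -0.37 to 0.00) reached p 0.0520 in limma before adjustment and 0.182 after it. Its paralog LATS1 had 3.32 ± 0.465 FPKM in LV-NC and 3.40 ± 0.519 FPKM in LV-SNORA28 (SD, n = 3). The ratio of LATS2 to LATS1 was 1.69 ± 0.276 in LV-NC and 1.41 ± 0.113 in LV-SNORA28 (SD, n = 3), with overlapping groups (exact permutation p 0.20, adjusted over the 4 ratios 0.400). The longest transcript of LATS1 has 7362 nt and that of LATS2 has 5546 nt. The class of at least 6000 nt was low in LV-NC replicate 2, where the ratio was highest. Its part in the ratio was not tested.

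AJUBA (ENSG00000129474; GRCh38 chromosome 14, 22971177 to 22982551, minus strand), an adaptor that binds LATS kinases and restrains them, measured 6.88, 7.44 and 8.14 FPKM across the LV-NC libraries, compared with 7.16, 7.87 and 8.48 FPKM across the LV-SNORA28 libraries. The groups overlapped almost fully. Its log2 fold change was 0.06 (SE 0.09, 95% interval -0.15 to 0.27, limma adjusted p 0.712) and -0.03 under quantile normalization. The intervals of WWTR1, TEAD4 and AJUBA all lie within 0.3 of 0 on the log2 scale, as does no other interval of the 9 genes.

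**Figure D3:**
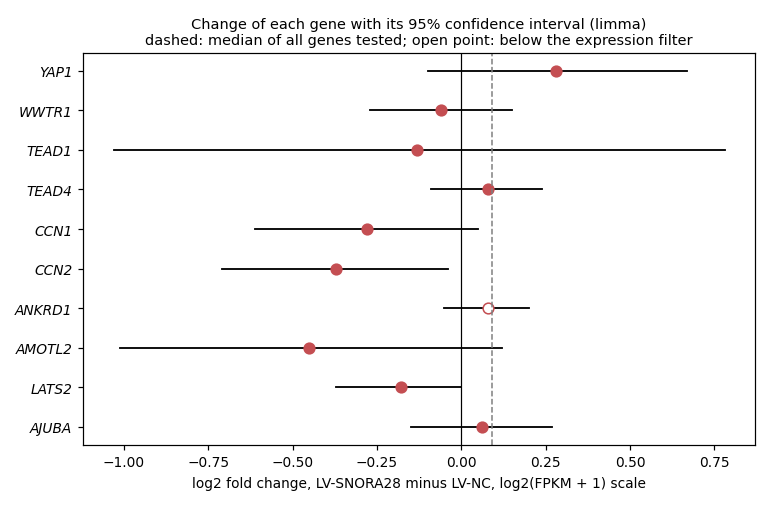
The log2 fold change of each of the 10 genes (horizontal axis, LV-SNORA28 minus LV-NC on the log2(FPKM + 1) scale) with its 95% confidence interval from limma, and the median of all genes tested (0.09) as a dashed line. The interval of TEAD1 is the widest, from -1.03 to 0.78, and that of CCN2 is the one that leaves out 0 before adjustment.

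**Figure D4:**
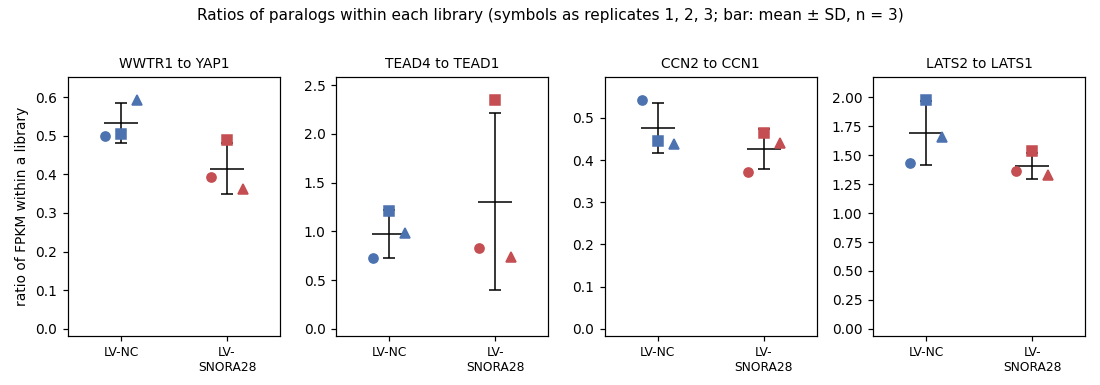
Ratios of FPKM within each library (vertical axes, linear) for 4 pairs of paralogs, with 1 symbol per library and the mean ± SD as bars. The WWTR1 to YAP1 ratio is the one whose groups do not overlap, and LV-SNORA28 replicate 2 stands at 2.35 for TEAD4 to TEAD1.

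The patterns of CCN1 and CCN2 over the 6 libraries were compared with those of all genes averaging 5 FPKM or more. The genes most like CCN1 were C9orf78, SLX9 and PPIH (Pearson r 0.994, 0.992 and 0.975 over 6 libraries). Those most like CCN2 were RPLP2, RPS24P8 and SKA3 (0.979, 0.975 and 0.970), of which RPS24P8 is a ribosomal protein pseudogene whose reads are uncertain. CCN1 ranked 86th of 6241 genes by likeness to CCN2 (r 0.870), and AMOTL2 and LATS2 ranked 322nd and 460th. AJUBA, WWTR1, TEAD4 and TEAD1 were spread further down, at 1856th, 1874th, 3297th and 3687th (r 0.117, 0.110, -0.302 and -0.385). By likeness to CCN1, AMOTL2 and LATS2 ranked 378th and 468th (r 0.693 and 0.654). AJUBA, TEAD4, WWTR1 and TEAD1 ranked 1376th, 2148th, 3650th and 4070th there (r 0.304, 0.049, -0.341 and -0.429). YAP1 was near the other end of the order, 5421st of 6241 for CCN2 (r -0.699) and 6042nd of 6240 for CCN1 (r -0.856). These values are a description over 6 libraries that share the difference between the groups and the scaling of each library.

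The rest of the pathway was read from lists of genes with their values beside those of all genes tested. Of 19 Hippo kinases and upstream regulators, 18 were tested, 2 rose and 16 did not pass, and the median log2 fold change was 0.14. STK3, the kinase MST2 at the head of the cascade, measured 1.92, 1.9 and 1.92 FPKM across the LV-NC libraries, compared with 2.92, 2.85 and 2.96 FPKM across the LV-SNORA28 libraries. Its groups were far apart, with a log2 fold change of 0.42 (SE 0.07, limma adjusted p 0.0175). MOB1A, the adaptor that activates LATS kinases, measured 16.54, 14.34 and 15.63 FPKM across the LV-NC libraries, compared with 20.48, 23.04 and 24.37 FPKM across the LV-SNORA28 libraries. It rose by 0.52 on the log2 scale (SE 0.09, limma adjusted p 0.0205). Both calls were lost without single libraries. STK3 had adjusted p-values of 0.0553 without LV-NC replicate 3 and of 0.0588, 0.0686 and 0.0735 without LV-SNORA28 replicates 1, 2 and 3, and MOB1A of 0.0578 and 0.0614 without LV-NC replicates 2 and 3 and of 0.0788 and 0.0739 without LV-SNORA28 replicates 2 and 3. Blocking on the replicate number gave 0.0552 and 0.0616. The share called, 11.1%, is near the 8.91% of all genes tested.

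Among 7 other TEAD factors, TEAD cofactors and angiomotins, 5 were tested and 1 rose (1 of 5, against 8.91% of all genes tested, or 6.81% called higher), and the median log2 fold change was 0.18. VGLL4, which competes with YAP for the TEAD factors and represses their targets, measured 3.18, 3.35 and 3.14 FPKM across the LV-NC libraries, compared with 5.27, 4.93 and 5.55 FPKM across the LV-SNORA28 libraries. Every LV-SNORA28 library lay above every control, and the log2 fold change of 0.56 (SE 0.07, limma adjusted p 0.00986) passed in each fit that tested it, with adjusted p-values of 0.0294 to 0.0459 when 1 library was left out. VGLL1 was listed at 0 in all 6 libraries. TEAD2 had a log2 fold change of 0.23 with an adjusted p of 0.0860 in limma, and TEAD3 had -0.47 with 0.307. In TEAD3, LV-NC replicate 3 (4.91 FPKM) lay below all LV-SNORA28 libraries (5.29 to 6.02 FPKM) and the other controls far above them (10.65 and 10.87 FPKM). Without LV-NC replicate 3 the log2 fold change of TEAD3 was -0.80 and passed (limma adjusted p 0.0190), and in the other 12 alternative fits it did not. These TEAD2 and TEAD3 values were chosen after they were seen, to complete the family.

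Other YAP/TAZ target genes moved in both directions. Of 17, 12 were tested, 3 rose, 1 fell and 8 did not pass, and the median log2 fold change was -0.06. The share called was 33.3%, against 8.91% of all genes tested. CRIM1, a membrane protein that binds growth factors, measured 12.75, 10.97 and 13.72 FPKM across the LV-NC libraries, compared with 8.82, 8.55 and 9.4 FPKM across the LV-SNORA28 libraries, and fell by 0.44 on the log2 scale (SE 0.09, limma adjusted p 0.0367). AXL, a receptor tyrosine kinase, went from 15.3 ± 1.14 to 19.4 ± 0.822 FPKM (SD, n = 3; log2 fold change 0.33, limma adjusted p 0.0442). ASAP1, an activator of the GTPase activity of ARF proteins, went from 5.75 ± 0.634 to 8.35 ± 0.778 FPKM (0.47, limma adjusted p 0.0372), and GADD45A, a stress-inducible growth arrest protein, from 27.0 ± 1.98 to 33.6 ± 1.12 FPKM (0.31, limma adjusted p 0.0465). All 4 had groups without overlap, as had 35.1% of all genes tested. These 4 were named for passing in the same libraries, so the lack of overlap adds no separate support. The 3 increases lay close to the threshold and did not pass under quantile normalization (adjusted p 0.0939 for AXL, 0.0538 for ASAP1 and 0.0937 for GADD45A) or with scaling to the nuclear FPKM sum (0.0660, 0.0549 and 0.0566). Blocking on the replicate number also ended these 3 calls (limma adjusted p 0.0925 for AXL, 0.0627 for ASAP1 and 0.0907 for GADD45A), whereas CRIM1 kept its call in each of these fits (0.0217, 0.0389 and 0.0496). With any 1 library left out the adjusted p-values were 0.0701 to 0.142 for AXL and 0.0746 to 0.139 for GADD45A. ASAP1 passed then only without LV-NC replicate 1 (0.0497) and otherwise reached up to 0.115 without LV-SNORA28 replicate 3. CRIM1 passed only without LV-NC replicate 2 (0.0352) and otherwise reached up to 0.121 without LV-SNORA28 replicate 2.

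CCN1 and CCN2 are also known to respond to serum response factor and AP-1, so immediate-early and AP-1 genes were read beside them. Of 14, 12 were tested, 4 rose, 0 fell and 8 did not pass, and the median log2 fold change was 0.26. The share called was 33.3%, against 8.91% of all genes tested, or 6.81% called higher. EGR1, an immediate-early zinc finger factor, measured 10.21, 10.95 and 9.08 FPKM across the LV-NC libraries, compared with 19.33, 20.64 and 20.41 FPKM across the LV-SNORA28 libraries (log2 fold change 0.93, SE 0.08, limma adjusted p 0.00352). SRF, the serum response factor itself, was listed at 8.81, 7.3 and 7.89 FPKM and at 13.21, 12.59 and 12.29 FPKM (0.61, SE 0.08, limma adjusted p 0.0106). In both genes the LV-SNORA28 libraries lay well above every control. JUNB, an AP-1 subunit, had a log2 fold change of 0.60 (limma adjusted p 0.00760) and IER3, an early response gene, 0.75 (limma adjusted p 0.0105). These 4 genes passed in all 13 alternative fits. The log2 fold change was above 0 for 12 of 12 genes, against 66.7% of all genes tested, and for 10 of 12 under quantile normalization or with scaling to the nuclear FPKM sum, against 49.7% and 62.8%. FOS had 0.00, with -0.08 and -0.02 under those scalings, and CCN1 and CCN2, as given above, had -0.28 and -0.37. Below the filter FOSB was listed at 1.04 to 1.18 FPKM in LV-NC and at 0.57 to 0.77 FPKM in LV-SNORA28 (limma adjusted p 0.175 without a filter), a value chosen after it was seen. IER2, with the highest log2 fold change of the list (1.06), did not pass (limma adjusted p 0.457), and LV-NC replicate 1 stood at 40.22 FPKM against 4.58 and 2.74 FPKM in the other controls and 17.42 to 20.07 FPKM in LV-SNORA28. Without LV-NC replicate 1 its log2 fold change was 2.12 and passed (limma adjusted p 0.0113), which made 5 calls in the list, and in the other 12 alternative fits it did not pass.

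**Figure D5:**
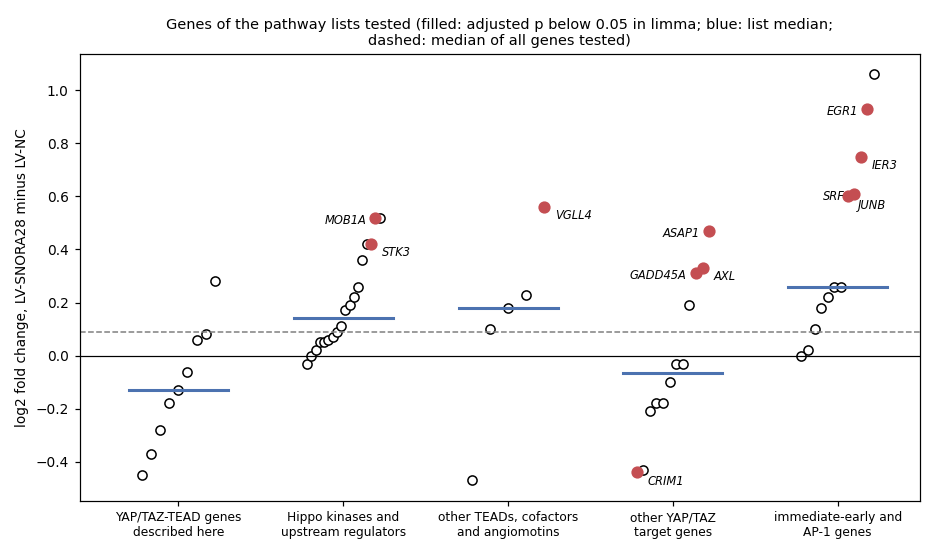
The log2 fold change (vertical axis, LV-SNORA28 minus LV-NC on the log2(FPKM + 1) scale) of each gene tested in the 10-gene set and in 4 lists, with genes at a limma adjusted p below 0.05 filled and named, list medians in blue and the median of all genes (0.09) dashed. The highest open point of the immediate-early list is IER2 at 1.06. The 9 genes described here have a median of -0.13 and no filled point, and the immediate-early list has a median of 0.26 and 4 filled points.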

How the data were processed

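The authors deposited 1 table of FPKM values per library, written with at most 2 decimals. The submitters' processing notes name cutadapt 1.9, HISAT2 2.2.1, StringTie 2.1.6, DESeq2 and edgeR with build hg38, without roles. The annotation and any filter are not given in the sources used here. Depth is unknown. In 4842 single-exon genes, low values scaled by length were compared with whole multiples of a step, over many step sizes. At the step that fitted best in each library, 35.9% to 39.9% came within 0.1 of a step of such a multiple. Chance gives 20% for 1 step fixed beforehand and at least that for the best of many, so 20% is a loose comparison. Reads could not be recovered and counts were not tested. Identifiers were matched to GENCODE release 44 on GRCh38 (60401 of 60612). Values were fitted as log2(FPKM + 1) with limma 3.58.1 (lmFit, eBayes with a mean-variance trend, R 4.3.3), with two-sided p-values adjusted by the Benjamini-Hochberg method over the 12076 genes averaging 1 FPKM or more. The fit was tested on simulated data. Ratios and promoter letters were computed in Python 3.11.15, and permutation tests were exact and two-sided. Libraries were grouped by their titles, and each pair differed in at least 26342 genes.

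The 10 genes, the lists and the tests were chosen with earlier results of these data known. The lists come from general knowledge. Of the 4 pathway lists, genes with an adjusted p below 0.05 were named, up to 6 by the lowest p, with those at 0 in every library, and LATS1 for its ratio. The genes most like CCN1 and CCN2 were the 3 with the highest Pearson r. Alternatives were another pseudocount, filter, trend, scaling or block, and each library left out in turn.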

Additional observations from a re-analysis of the deposited data

How the results depend on the processing

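No gene of the 10 passed in any of the 13 alternative fits that tested it, ANKRD1 being tested only without a filter (the fits were a pseudocount of 0.1, no filter, a mean of at least 5 FPKM, which left out CCN2, no trend, quantile normalization, scaling to the nuclear FPKM sum, the replicate number as a block, and each of the 6 libraries left out), and the lowest adjusted p was 0.0797 (AMOTL2 without LV-SNORA28 replicate 3). Over all genes, 1076 calls became 510 with the replicate block and 397 when all 32761 genes above 0 in any library entered the fit without a filter. With 1 library left out they ranged from 279 (without LV-SNORA28 replicate 2) to 628 (without LV-NC replicate 1). The 822 higher and 254 lower genes became 451 and 375 under quantile normalization. The 458 genes past the cutoff of the study (unadjusted p below 0.05, fold change above 1.5) became 771 with a pseudocount of 0.1, 263 with a mean of at least 5 FPKM and 92 at a fold change above 2, and ranged from 431 to 515 with 1 library left out. None of the 10 genes was among the 458. The 11 calls of the 4 lists, for which all alternatives were added after the data were seen, became 5 without a filter and 6 with the replicate block, and ranged from 5 to 9 with 1 library left out. The cause was not tested.

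Directions that changed were those of TEAD4 (-0.01) and AJUBA (-0.03) under quantile normalization, of FOS, which had -0.08 there, -0.02 with scaling to the nuclear FPKM sum and -0.05 to 0.08 with 1 library left out, of WWTR1, whose log2 fold change ranged from -0.12 to 0.02 with 1 library left out, of TEAD1, which ranged from -0.38 to 0.32, and of the TEAD4 to TEAD1 ratio, whose log2 difference of 0.24 ranged from -0.29 without LV-SNORA28 replicate 2 to 0.55. Across all genes tested, same-numbered replicates deviated together little (correlations of -0.0441, 0.0914 and 0.00983). Such correlations cannot show whether same-numbered libraries shared a culture or a batch. Permuting within replicate numbers, where p cannot fall below 0.250, gave 0.250 for the WWTR1 to YAP1 ratio. The precision of low values is limited, since the depth is unknown.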
